A study of Gallus gallus with 8 samples.

Results

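Messenger RNA for the fibroblast growth factor (FGF) receptors FGFR1, FGFR2, FGFR3 and FGFR4, the receptor-like protein FGFRL1, and the membrane modulators IL17RD and FLRT3 was compared between the cranial neural fold and the ventral neural plate of the chick embryo. The genes were taken by name: every probe set without a control name whose platform symbol is one of these 7 genes was used. This gave 19 of 38439 probe sets, with 1 for FGFR1, 5 for FGFR2, 4 for FGFR3, 1 for FGFR4, 2 for FGFRL1, 2 for IL17RD and 4 for FLRT3. Cranial neural folds, the raised edges that hold the future neural crest, gave 4 arrays, and the cranial neural plate, named ventral in the series text, gave 4 arrays. All came from chick embryos at stage 8 of Hamburger and Hamilton, with no strain and no treatment other than dissection given. Embryos numbered 80 to 114, but how they were divided among the arrays is not given, so p-values measure only the spread between these samples, which may be technical.

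FGFs are secreted ligands that bind receptor tyrosine kinases together with heparan sulfate, and the active receptors signal through the RAS and ERK cascade. FGFRL1 has the extracellular form of an FGF receptor but lacks the tyrosine kinase domain. IL17RD, also called Sef, is a membrane inhibitor of the pathway first described in zebrafish, and FLRT3 is a leucine-rich repeat membrane protein that binds FGF receptors and promotes signalling in Xenopus. In the chick embryo FGF signalling is known from neural induction and from patterning of the midbrain and hindbrain.

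Of the 7 genes, only FGFRL1 passed the threshold, and it was lower in neural fold by both of its probe sets, by -2.72 ± 0.36 and -2.52 ± 0.21 on the log2 scale (SE, n = 4 each). Its neural fold values were close to background, so these sizes depend on the processing. The dimmer probe set allows only a bound, of at least 2.46-fold. FGFR2 lay slightly higher in neural fold and its brightest probe set had a change of 0.53 ± 0.14, which was not past the threshold over all probe sets. FGFR3 had changes near 0 by its 3 bright probe sets. FGFR1, FGFR4, IL17RD and FLRT3 had changes of -0.54 to 0.61, none of them past the threshold.

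Deposited values are array intensities. They were analysed as log2(intensity + 16) after quantile normalization, each change subtracts the neural plate mean from the neural fold mean and carries the SE of limma's fit, and the threshold was 0.05 on the Benjamini-Hochberg adjusted p over 23063 tested probe sets. Of the 19 probe sets, 17 passed the filter on low means and were tested. Of these 17, 2 were past the threshold (11.8%), both lower in neural fold, against 1.28% of all tested probe sets in either direction and 0.585% lower. With the replicate number as a block the count was again 2, where 1.73% of all tested probe sets were called. The filter kept means of 6.43 or more over the 8 arrays. Both called probe sets, those of FGFRL1, had neural fold means below that level and passed it through neural plate, so these counts only describe the 17 and nothing is read from them. The 17 are repeat measurements of 7 transcripts and not separate genes. At an unadjusted p of 0.05 the count was 5, namely both FGFRL1 and 3 FGFR2 probe sets, or 29.4% against 8.26% of all tested probe sets. The same 5 had no overlap between the tissues, where 6.71% of all tested probe sets had none. In 2 of them neural fold was the lower (3.59% of all) and in 3 the higher (3.12% of all).

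**Figure D1:**
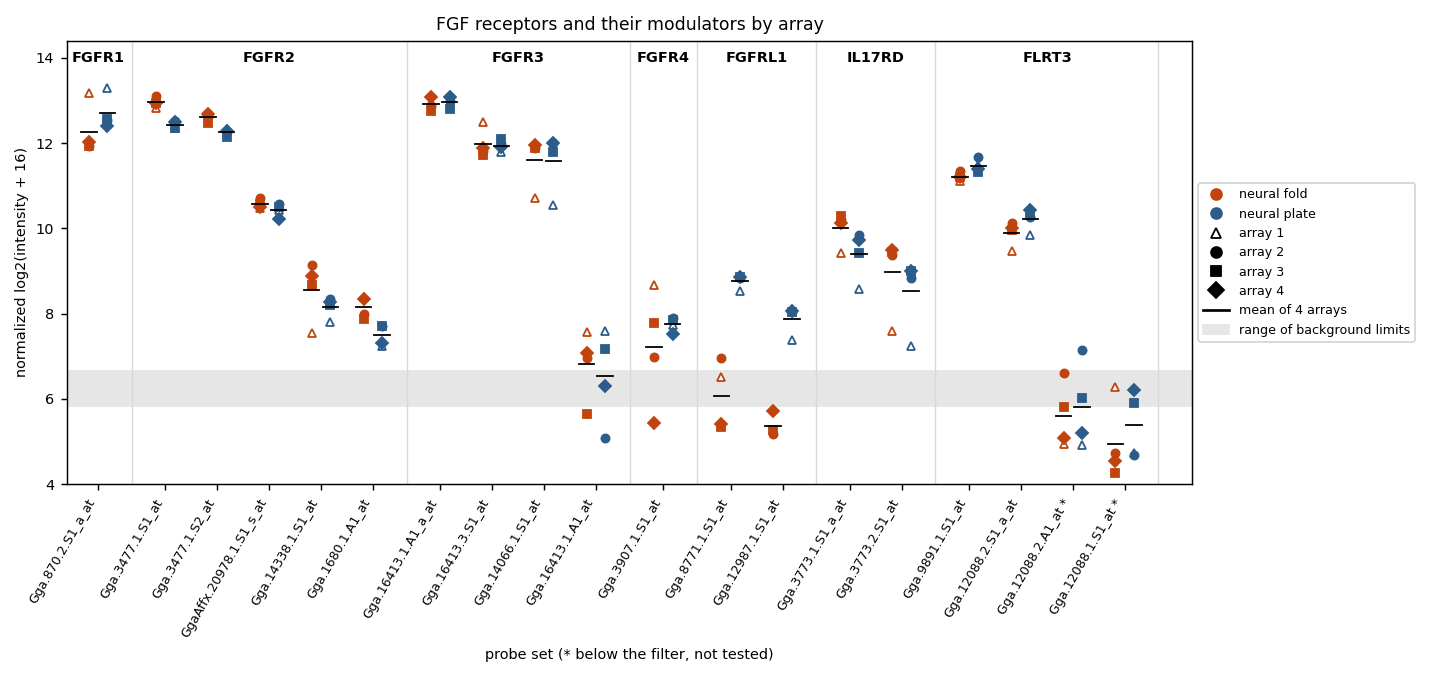
Normalized log2(intensity + 16) of each of the 19 probe sets on every array, with neural fold left of neural plate, a short line for the mean of 4 arrays and a grey band for the range of the 8 arrays' background limits. The FGFRL1 probe sets lie at 5.18 to 6.95 on the neural fold arrays and at 7.39 to 8.86 on the neural plate arrays, and the open triangles show the arrays numbered 1 away from the other arrays for FGFR1, IL17RD and 1 FGFR3 probe set.

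The dissection was checked on marker genes. All 4 neural fold markers (PAX7, TFAP2B, SNAI2, MSX2) were higher in neural fold, with summed intensities of 12121 to 20791 in neural fold and 390 to 503 in neural plate. All 4 ventral neural plate markers (SHH, FOXA2, NKX6-1, NKX6-2) were lower in neural fold, with sums of 688 to 1368 in neural fold and 8117 to 9962 in neural plate. Within a tissue, pairs of arrays had correlations of 0.878 to 0.970. The first array of each tissue was set off from the rest by its median intensity, which was 195.8 for neural fold and 182.3 for neural plate, whereas the remaining 6 arrays had medians of 105.4 to 121.7. In dissected tissue, fewer cells of a type and less RNA per cell cannot be told apart. Intensities of different probe sets depend on their probes, so levels are compared between arrays and never between genes.

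FGFRL1, the receptor without a kinase domain, was close to background in neural fold and well measured in neural plate. Its brighter probe set had intensities of 124, 92.8, 18.8 and 21 on neural fold arrays 1 to 4, against 412, 422, 442 and 447 on neural plate arrays 1 to 4. The lowest neural plate array was thus above the highest neural fold array, and the neural fold arrays were the more scattered. Only 1 of 4 neural fold arrays lay above the background limit, whereas all 4 neural plate arrays did. That limit is the 95th percentile of 59 control probe sets on the same array, chosen by name and assumed to be unspiked. The normalized neural fold mean was 6.06 ± 0.80 and the neural plate mean 8.77 ± 0.16 (SD, n = 4), and the change of -2.72 ± 0.36 had a limma adjusted p of 0.0099 (95% interval -3.55 to -1.88). This is 6.58-fold as fitted and 4.28-fold with arrays below their background limit set at that limit.

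The other FGFRL1 probe set gave the same direction. It had intensities of 39.9, 16.8, 17.1 and 28.9 in neural fold, against 212, 233, 231 and 239 in neural plate. No neural fold array lay above its background limit and every neural plate array did. The normalized neural fold mean was 5.36 ± 0.24 and the neural plate mean 7.88 ± 0.33 (SD, n = 4), and FGFRL1 was at least 2.46-fold lower in neural fold by this probe set (change -2.52, limma adjusted p = 0.00084). The bound sets the mean in neural plate against, per neural fold array, the background limit or the probe set's own value, whichever was higher. Both stayed past the threshold without any 1 array, with adjusted p-values of up to 0.0493 for the brighter and 0.0066 for the dimmer probe set.

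Some markers of other tissues were lower in neural fold, as FGFRL1 was. Others were short of the threshold, with changes in both directions. TBX1 (head mesoderm, 1.17) and TTR (endoderm, 0.43) had changes above 0, and MEOX1 and PECAM1 had changes near 0. Changes below 0 were found for TWIST1 (-1.98), FOXC1 (-0.96) and FOXC2 (-0.87) of head mesoderm. The same held for APOA1 (-1.42) of endoderm and LMO2 (-2.39) of blood and endothelium. These last-named genes, TWIST1 to LMO2, had no overlap between the normalized tissues. The same held, with neural fold lower, for 3.59% of all tested probe sets. As deposited, the tissues overlapped for FOXC1 and FOXC2. Of 5 notochord and prechordal plate genes, 3 (TBXT, CHRD and GSC) were lower in neural fold, with summed intensities over the 5 of 904 to 1747 in neural fold and 11320 to 15653 in neural plate, and GSC lay at or below the background limit on all neural fold arrays. Of 4 tested endoderm genes, 1 (SOX17) was lower, with sums over 5 measured genes of 1187 to 2236 in neural fold and 2800 to 3763 in neural plate. Of 6 tested head mesoderm genes and 4 tested blood and endothelial genes, 0 passed the threshold by limma, where 1.75% of all tested genes did. With so few genes, a count of 0 cannot show that these tissues did not differ, and LMO2 had a limma adjusted p of 0.0504. The sums over 7 head mesoderm and 5 blood and endothelial genes were 1536 to 1957 and 428 to 770 in neural fold. In neural plate they were 1868 to 3000 and 1079 to 2281. What part these tissues had in the FGFRL1 values was not tested.

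**Figure D2:**
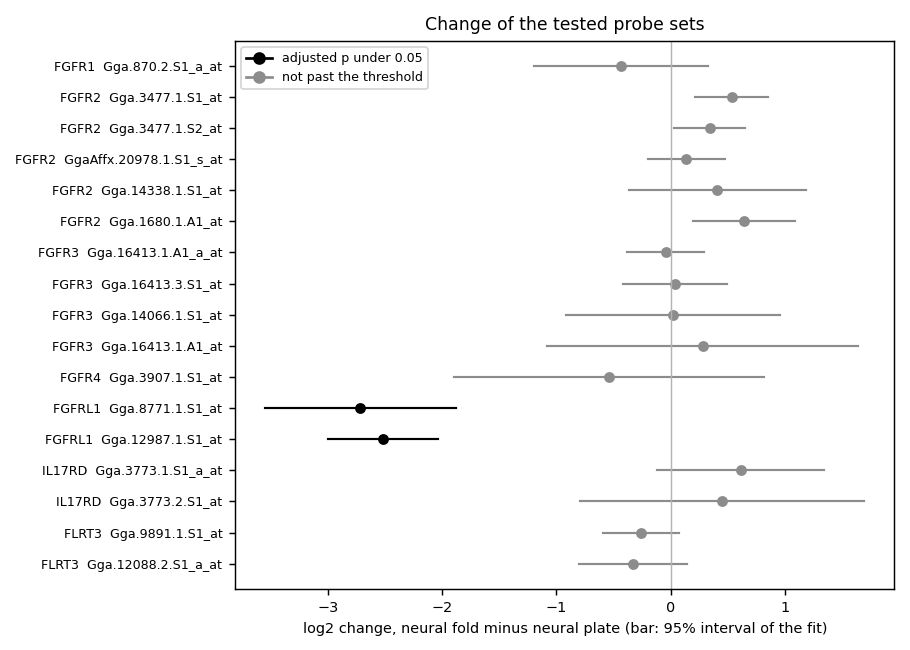
Log2 change of each of the 17 tested probe sets, neural fold minus neural plate, with the 95% interval of the fit, in black where the adjusted p was under 0.05. The 2 FGFRL1 probe sets at -2.72 and -2.52 stand apart from the others, which lie between -0.54 and 0.65.

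FGFR2, a receptor known for roles in epithelial and ectodermal tissue, had a change above 0 on all 5 probe sets, from 0.14 to 0.65. The brightest had intensities of 6315, 9426, 8281 and 8496 in neural fold, against 4664, 6039, 5436 and 5821 in neural plate. Every neural fold array lay above every neural plate array, by a narrow margin for neural fold array 1. The normalized neural fold mean was 12.96 ± 0.12 and the neural plate mean 12.42 ± 0.09 (SD, n = 4), a 1.45-fold difference (95% interval of the change 0.22 to 0.85, limma adjusted p = 0.17). The exact two-sided permutation p was 0.0286, the smallest that 4 against 4 arrays allow. By replicate number the difference was 0.47, 0.60, 0.60 and 0.46. This probe set was past the threshold with a term for the arrays numbered 1 (adjusted p = 0.030), where 3.74% of all tested probe sets were, and with an intensity trend in the variance (0.023), and not with the replicate number as a block (0.092).

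The other FGFR2 probe sets had smaller or noisier differences. The next brightest had intensities of 5687, 6482, 5937 and 6928 in neural fold, against 4546, 5059, 4665 and 5054 in neural plate. These tissues did not overlap either, with a change of 0.34 ± 0.14 (limma adjusted p = 0.51). The dimmest had a change of 0.65 ± 0.20 (limma adjusted p = 0.29). It read 194 to 390 in neural fold, against 125 to 194 in neural plate, and its tissues touched as deposited and did not overlap once normalized. Another dim probe set read 247, 517, 374 and 437 in neural fold, against 267, 287, 267 and 281 in neural plate, so that neural fold array 1 lay below the neural plate range and the other 3 above it. Its change was 0.41 ± 0.34. A probe set whose s_at suffix marks probes shared with other transcripts had a change of 0.14 ± 0.15, with tissues that overlapped.

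Some markers of non-neural ectoderm lay on the same side as FGFR2 and IL17RD. Of 5 measured ectoderm genes, 2 (CDH1 and TFAP2C) were higher in neural fold. GATA3 (change 1.27) and EPCAM (0.47) were short of the threshold, and GATA2 had a change near 0 (0.06). For GATA3 and EPCAM the tissues did not overlap, as for 3.12% of all tested probe sets with neural fold higher. The summed intensity over the 5 was 14330 to 15394 in neural fold and 9207 to 9703 in neural plate, most of it from EPCAM. The neural fold borders on that ectoderm, and its part in the FGFR2 and IL17RD values was not tested.

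FGFR1, the receptor whose loss disturbs gastrulation in the mouse, was brighter on the arrays numbered 1 than on the others. Its single probe set had intensities of 8059, 4069, 4104 and 4369 in neural fold, against 8733, 6137, 6263 and 5409 in neural plate. Among the remaining arrays neural fold lay below neural plate. Over all 8 arrays the change was -0.44 ± 0.33 (limma adjusted p = 0.955, 95% interval -1.20 to 0.33). Without both arrays numbered 1 it was -0.54 ± 0.11 (limma adjusted p = 0.074, 95% interval -0.80 to -0.28, where 2.34% of all tested probe sets were called). By replicate number, an assumed pairing, the FGFR1 differences were -0.13, -0.62, -0.63 and -0.37. FGFR1 stayed short of the threshold in every alternative run.

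FGFR3, a receptor expressed in the early neural tube, had changes near 0 by its 3 brightest probe sets. The brightest probe set had intensities of 6904, 7812, 7338 and 9326 in neural fold, against 6924, 8364, 7390 and 8819 in neural plate. The tissues overlapped throughout, and the change was -0.04 ± 0.15 (limma adjusted p = 1.00, 95% interval -0.38 to 0.30). The next brightest FGFR3 probe sets had changes of 0.04 ± 0.20 and 0.02 ± 0.41. In the one with the wide error, the arrays numbered 1 were low in both tissues. In neural fold array 1 read 1522 and the others 3941 to 4159, and in neural plate array 1 read 1389 and the others 3635 to 4215. With these 2 arrays left out its change was -0.03 ± 0.11. The dimmest FGFR3 probe set was near background (17.0 to 251 over 8 arrays, above the limit on 3 of 4 arrays in each tissue), with a change of 0.28 ± 0.60.

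FGFR4, the receptor best known from mesoderm and muscle precursors, was variable in neural fold. Its probe set had intensities of 452, 95.1, 178 and 21.5 in neural fold, against 260, 207, 199 and 152 in neural plate. The neural fold arrays lay on both sides of the neural plate arrays, and 1 of them was below the background limit. The change of -0.54 ± 0.59 (limma adjusted p = 1.00) had a 95% interval of -1.90 to 0.82, so that neither direction could be given. Without neural fold array 4 the change was 0.05 ± 0.37, of opposite sign.

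**Figure D3:**
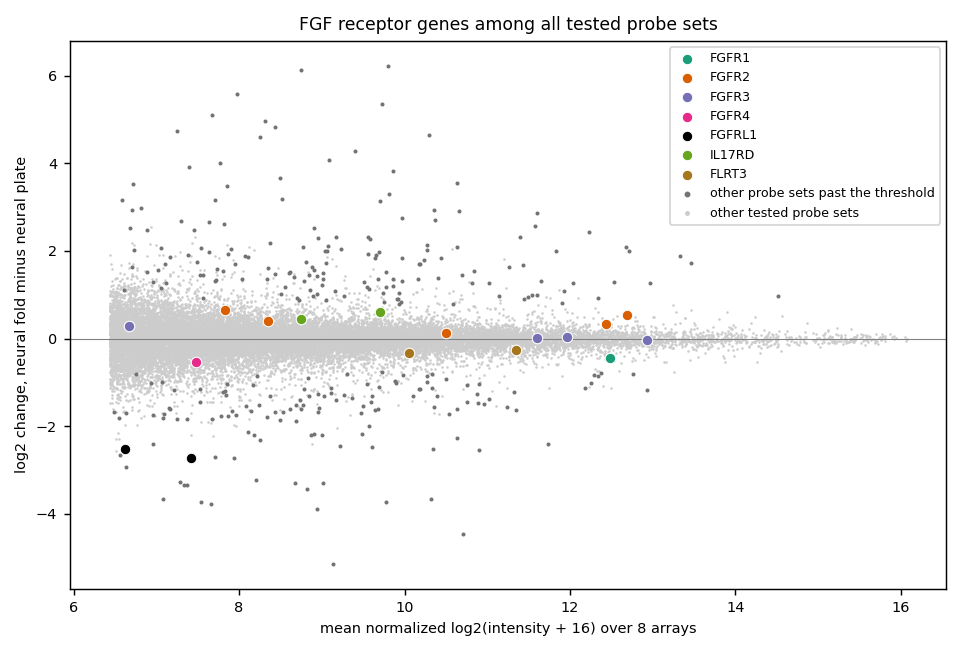
Log2 change against the mean normalized log2(intensity + 16) over 8 arrays for all 23063 tested probe sets, with those of the 7 genes in colour. FGFR1, FGFR2 and FGFR3 have bright probe sets with changes between -0.44 and 0.53, and the 2 FGFRL1 probe sets lie at the dim end among the genes lower in neural fold.

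IL17RD, the pathway inhibitor, had changes above 0 by both probe sets. The brighter had intensities of 684, 1160, 1254 and 1098 in neural fold, against 420, 894, 671 and 852 in neural plate. By replicate number, an assumed pairing, neural fold was the higher by 0.83, 0.35, 0.87 and 0.40 on the normalized log2 scale. Array 1 of neural fold lay within the neural plate range. The change was 0.61 ± 0.32 (limma adjusted p = 0.76). The dimmer probe set had 255, 632, 666 and 697 in neural fold, against 193, 421, 498 and 497 in neural plate. Its differences by number were 0.36, 0.53, 0.43 and 0.49, smaller than the gap between array 1 and the other arrays of either tissue. Its change of 0.45 ± 0.54 (limma adjusted p = 1.00) had an SE of 0.09 and an adjusted p of 0.049 with a term for the arrays numbered 1, and the other probe set had an adjusted p of 0.052 there. With the replicate number as a block neither passed (limma adjusted p = 0.152 and 0.135).

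FLRT3, the membrane partner of FGF receptors, had changes below 0 by both measured probe sets. The brighter had intensities of 1965, 2702, 2397 and 2411 in neural fold, against 2582, 3356, 2618 and 2759 in neural plate. Only neural fold array 2 reached the neural plate range, and the change was -0.26 ± 0.15 (limma adjusted p = 0.80, exact two-sided permutation p = 0.0571). The dimmer had 708, 1109, 991 and 1007 in neural fold, against 901, 1223, 1310 and 1419 in neural plate, a change of -0.33 ± 0.21 (limma adjusted p = 0.87). Both had a negative difference at every replicate number, a pairing that is assumed. The remaining 2 FLRT3 probe sets were below the filter, with 13.8 to 121 and 2.2 to 103 over the 8 arrays, and lay above the background limit on 2 and 1 of 8 arrays.

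Whether the genes changed unequally was tested on the per-array difference between the brightest probe sets of each pair of genes. Of 21 pairs, 8 reached the smallest exact two-sided permutation p that 4 against 4 arrays allow, 0.0286, which was 0.075 after Benjamini-Hochberg adjustment over the 21 pairs. They were FGFRL1 against each of the other 6 genes, FGFR2 against FGFR3 (0.58) and FGFR2 against FLRT3 (0.79). The 6 pairs with FGFRL1 all use the FGFRL1 values given above and are not separate results. Since no p can lie under 0.0286, the adjusted p depends on how many pairs reach it. The 0.075 of the 2 FGFR2 pairs thus rests on the FGFRL1 pairs too, and nothing is read from it. Sizes are not given for FGFRL1, since only 1 of its 4 neural fold arrays lay above the background limit, and its difference was 6.58-fold as fitted but 4.28-fold with arrays below that limit set at it. FGFR1 minus FGFR2 had a difference of -0.97 between the tissues, with an exact two-sided permutation p of 0.114. The permutation does not use the replicate numbers. Taken by number, an assumed pairing, that difference was -0.60, -1.22, -1.23 and -0.83, below 0 at all 4. Other pairs short of the smallest p also kept 1 sign at all 4 numbers. FGFR1 minus FGFR3, FGFR1 minus IL17RD and IL17RD minus FLRT3 were among them. Pairing by number is an assumption, so nothing is read from these signs. Among 19 pairs of probe sets of 1 gene, 2 reached 0.0286 (0.27 after adjustment, under the same limit). Both were between the FGFR2 probe set with shared probes and another FGFR2 probe set. As deposited, 0 of the 19 did.

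**Figure D4:**
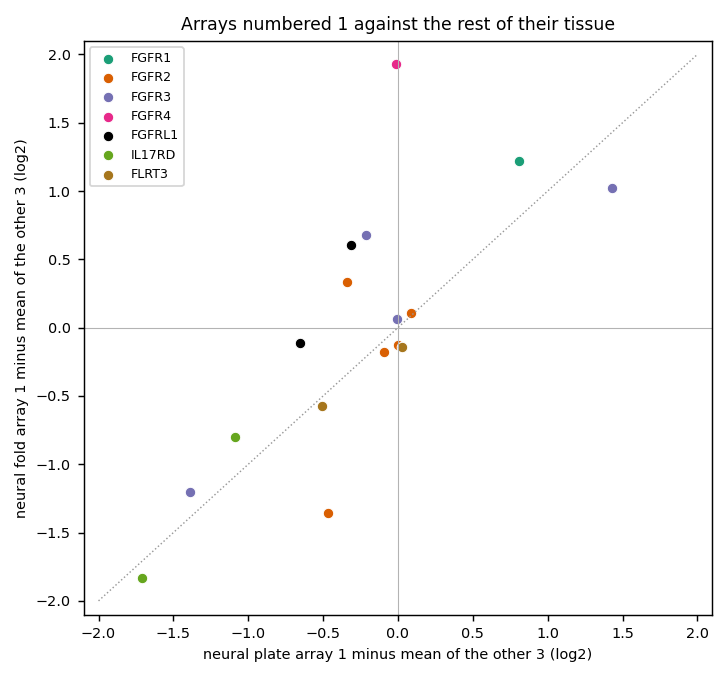
Array 1 minus the mean of the other 3 arrays of its tissue on the normalized log2 scale for each of the 17 tested probe sets, with neural fold on the vertical axis and neural plate on the horizontal axis, and a dotted line where both are equal. FGFR1 lies at 1.22 for neural fold and 0.81 for neural plate, and an IL17RD probe set at -1.83 and -1.71.

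The arrays numbered 1 departed from the others in the same direction in both tissues for 10 of the 17 probe sets, or 58.8%, against 77.1% of all tested probe sets. Quantile normalization had been applied before this comparison. Departures over 1 in size in both tissues were found for 3 probe sets (the third brightest and the dimmest of FGFR3, and the dimmer of IL17RD), each in 1 direction, as for 10.5% of all tested probe sets. The FGFR3 pair departed in opposite directions, at -1.20 and 1.02 for neural fold and -1.39 and 1.43 for neural plate. The brightest FGFR2 and FGFR3 probe sets departed by 0.18 or less in either tissue. FGFRL1 departed by 0.61 and -0.11 in neural fold, against -0.31 and -0.65 in neural plate. Without both arrays its changes were -2.95 ± 0.43 and -2.65 ± 0.16 (limma adjusted p = 0.028 and 0.0020). These sizes are as fitted, with neural fold close to background.

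Other genes of the pathway were followed in 4 lists of ligands, co-receptors and matrix partners, intracellular transducers, and feedback and target genes. Of 100 listed genes, 65 had a tested probe set, 23 fell below the filter and 12 had no probe set with that symbol alone. By their brightest probe set, 5 of the 65 passed the threshold (7.69%), against 1.75% of all 10279 genes tested. The lists were chosen with earlier results of these data known, so these shares only describe the 65 and nothing is read from them. Under median centring 1 gene passed, and with no filter 2 did. The count was 3 without neural plate array 1 and 2 without any 1 of the arrays numbered 2 to 4. With the replicate block it was 7, where 2.3% of all genes were called.

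Among 9 tested genes of the ligand list, 0 were higher and 2 lower in neural fold (0.827% of all genes were lower). Their median change was -0.24, against -0.0052 over all genes. The list also holds FGF12, FGF13 and FGF14, which belong to the FGF family but are not secreted. FGF3, an early ligand of the neural plate, had intensities of 378, 292, 276 and 270 in neural fold, against 767, 708, 694 and 865 in neural plate (change -1.26 ± 0.14, limma adjusted p = 0.0037). FGF19 had 520, 487, 447 and 384 in neural fold, against 817, 832, 767 and 899 in neural plate (change -0.82 ± 0.14, limma adjusted p = 0.035, and 0.058 with the replicate number as a block). Neither ligand overlapped between the tissues. A dimmer FGF3 probe set had a change of -1.75 ± 0.59 that was not past the threshold (adjusted p = 0.37).

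Among 21 tested co-receptors and matrix partners, 0 were higher and 1 lower (median -0.16, where 0.827% of all genes were lower). CDH2, the neural cadherin that also binds FGFR1, had 3012, 3920, 4425 and 4323 in neural fold, against 6228, 7239, 7250 and 7032 in neural plate (change -0.86 ± 0.14, limma adjusted p = 0.023), on a probe set whose suffix also marks shared probes. The other tested CDH2 probe set was not past the threshold. The replicate block added 2 genes. UNC5B, a netrin receptor that binds FLRT3, was higher (0.96 ± 0.21 without the block, limma adjusted p = 0.097, and 0.039 with it). SULF1, which removes sulfate groups from heparan sulfate, was lower by its brightest probe set (-1.26 ± 0.44, limma adjusted p = 0.40, and 0.031 with it). Of 6 tested SULF1 probe sets, 0 passed without the block. Besides the brightest, their changes were -1.33 ± 0.39, -1.30 ± 0.50, -1.24 ± 0.61, -1.165 ± 0.51 and 0.02 ± 0.51.

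Among 20 tested genes of the transducer list, 0 passed in either direction by limma (median -0.0081), where 1.75% of all genes passed. For 20 genes a count of 0 is near that share, so nothing about transducers is read from it. The count was also 0 with the block, with a term for the arrays numbered 1 and without those arrays. The largest changes were those of SHC1 (-0.93 ± 0.52, limma adjusted p = 0.80) and PIK3R1 (-0.73 ± 0.31, adjusted p = 0.59). Both were near background. SHC1 lay above the limit on 1 of 4 neural fold and 3 of 4 neural plate arrays, and PIK3R1 on 2 and 4. With arrays below their background limit set at that limit, the changes were -0.49 and -0.54. PIK3R1 had an unadjusted limma p of 0.047, where 8.26% of all tested probe sets were under 0.05.

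Among 15 tested feedback and target genes, 2 were higher and 0 lower (median 0.04, where 0.924% of all genes were higher). DUSP5, a phosphatase of nuclear ERK, had intensities of 2085, 1690, 1609 and 1328 in neural fold, against 421, 347, 206 and 353 in neural plate. These tissues did not overlap (change 2.32 ± 0.24, limma adjusted p = 0.0027), and its other probe set rose by 2.98 ± 0.34 (adjusted p = 0.0049). MYC had 1077, 1343, 1302 and 1534 in neural fold, against 670, 647, 763 and 721 in neural plate (change 0.89 ± 0.15, limma adjusted p = 0.030). DUSP6, the cytoplasmic ERK phosphatase, had a change of 1.15 ± 0.27 (limma adjusted p = 0.12) and passed with the block (0.031).

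**Figure D5:**
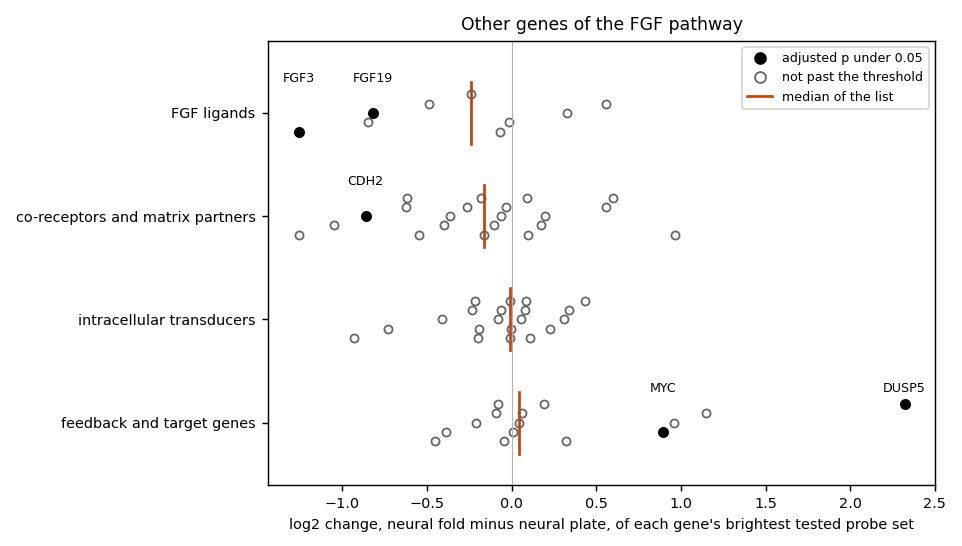
Log2 change, neural fold minus neural plate, of the 65 tested pathway genes by list, each at its brightest tested probe set, with filled points past the threshold and a line at each list's median. FGF3, FGF19 and CDH2 lie below 0, and MYC and DUSP5 above it.

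Genes with the most similar profile to each member were listed by Pearson correlation over the 8 arrays. Only probe sets with 1 symbol, of another gene, were searched among the 23063 tested. These values are a description, high because they were picked from so many probe sets, and arrays share tissue and replicate number. FGFRL1 was closest to FAM65B (r = 0.979), ITM2B (0.976), which encodes a membrane protein, and ACVR2B (0.975), an activin receptor. Of these, FAM65B was past the threshold (change -1.28, limma adjusted p = 0.022). FGFR2 was closest to OLFM1 (r = 0.983), which encodes the secreted protein noelin, ROBO2 (0.982), a Slit receptor, and ELL2 (0.981), a transcription elongation factor. All 3 were higher in neural fold, by 1.29, 0.96 and 2.15. FGFR1 was closest to SPARC (r = 0.995), a matrix protein, DDR1 (0.992), a collagen receptor, and NOL9 (0.991), and these had changes of -0.28, -0.46 and -0.27 that were not past the threshold.

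IL17RD was closest to KBTBD8 (r = 0.992), MAP3K4 (0.986) and SYT9 (0.983), FLRT3 to SIAH2 (0.965), TRAPPC3 (0.965) and SERHL (0.956), and FGFR4 to PCDH15 (0.966), PTDSS2 (0.962) and RARS (0.960). FGFR3 had the lowest such values, with USP47 at r = 0.910, GRPEL2 at 0.874 and HDAC10 at 0.866. None of these 12 neighbours was past the threshold, with limma adjusted p-values of 0.47 to 1.00.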

How the data were processed

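Each of 8 samples was hybridised to 1 Affymetrix chicken genome array. The deposited table holds linear intensity values that the authors made, for each array, in GCOS per the submitters' processing notes. Its version, background treatment and detection calls are not given in the sources used here. The mean after trimming 2% at each end lay within 499 to 500 on every array, as scaling to 1 target gives. The table held 38535 probe sets, of which 96 with control names were left out, and 0 columns of per-sample values were unused.

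Values were analysed as log2(intensity + 16), which understates changes of dim genes. Array medians differed by 0.80 on this scale, so arrays were quantile normalized. Probe sets with a mean at or above the 40th percentile were tested in R 4.3.3 with limma 3.58.1 (lmFit, eBayes), adjusted by Benjamini-Hochberg over all 23063. The code was tested on simulated data. Single values were tested by exact two-sided permutation over 70 splits of the arrays. The number of arrays limits the precision.

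Symbols came from the platform's 2016 annotation. All 19 member IDs matched the RefSeq table of assembly GRCg7b, and 0 symbols changed. The files name no build, so no coordinates are given. The lists, the members and the tests were chosen with earlier results of these data known. The rule for named genes took all members, up to 4 called genes of each pathway list or, with none called, the 2 largest changes, the 3 closest profiles per member, and the marker genes. DUSP6, UNC5B and SULF1 were named after their values were seen.

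Replicate numbers are shared between the tissues in the sample titles. Deviations from the tissue means of same-numbered arrays correlated at 0.623, 0.193, 0.290 and 0.214 for numbers 1 to 4. The arrays numbered 1 departed in the same direction in both tissues for 77.1% of all tested probe sets. Such a departure moves the remaining arrays of both tissues the opposite way from their means, so the smaller correlations cannot show pairing. Of the 8 arrays, 6 correlated best with the array of their own number. Pairing by number was therefore taken as an assumption, and a fit with the number as a block was run as an alternative. Other alternatives were the values as deposited, median centring, pseudocounts of 1 and 64, no filter, a filter at the 60th percentile, an intensity trend, each array left out, both arrays numbered 1 left out or given a term, and a gene's mean over probe sets.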

Additional observations from a re-analysis of the deposited data

Results flagged for a closer look

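In each tissue, the 4 arrays of every tested probe set were searched for 1 array far from the others. This marked 8 of 34 groups, where chance gives about 1 in 20 and 11.6% of the groups of all tested probe sets were marked. Of the 8, 7 were arrays numbered 1, as were 82.3% of those marked among all tested probe sets. All values are normalized log2(intensity + 16).

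FGFR1 stood at 13.18 on neural fold array 1, against 11.92 to 12.03 on the other neural fold arrays. The third brightest FGFR3 probe set stood at 10.71 on neural fold array 1 and 10.54 on neural plate array 1, against 11.89 to 11.95 and 11.79 to 12.01 on the others. The dimmer IL17RD probe set stood at 7.60 on neural fold array 1 and 7.24 on neural plate array 1, against 9.38 to 9.49 and 8.84 to 9.01.

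FGFRL1 stood lower on neural plate array 1 by both probe sets, at 8.54 against 8.84 to 8.86 and at 7.39 against 8.03 to 8.06. As deposited, the same array was nearer to the others, at 412 against 422 to 447 and at 212 against 231 to 239. Its dimmer probe set also stood at 5.71 on neural fold array 4, against 5.18 to 5.27 on the others, all at or below the background limit. As deposited, neural fold array 1 was the highest for that probe set (39.9) and array 4 read 28.9. The cause of these departures was not tested.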

How the results depend on the processing

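FGFRL1 was lower in neural fold and past the threshold by both probe sets in every alternative in which it was tested, with changes of -3.12 to -2.04 and -3.12 to -1.67. The count of probe sets of the 7 genes past the threshold was 2 (295 of all tested probe sets), with 3 under an intensity trend (377 of all), 4 with a term for both arrays numbered 1 (863 of all), and 0 with the filter at the 60th percentile (352 of all), which removes both FGFRL1 probe sets. With the replicate number as a block it was 2 (398 of all tested probe sets). The block changed no call of the 7 genes.

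Of 309 recomputed changes, 293 kept their direction and side of the threshold, 3 came past it and 13 changed sign. The sign changes were in FGFR3 and FGFR4, whose changes were not past the threshold. Leaving out 1 array at a time gave -0.099 to 0.0126, -0.128 to 0.127, -0.326 to 0.323 and -0.203 to 0.668 for the FGFR3 probe sets from brightest to dimmest and -1.02 to 0.0502 for FGFR4. Without both arrays numbered 1, the second brightest FGFR3 probe set had -0.182 and the third -0.0255, and the mean of the FGFR3 probe sets had 0.076.

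All probe sets past the threshold numbered 295, with 151 under median centring, 863 with a term for the pair of arrays numbered 1, 540 when that pair was left out, and 139 to 301 without 1 array. Leaving out neural fold arrays 2, 3 or 4 gave 158, 159 and 153, and leaving out neural plate arrays 3 or 4 gave 166 and 139, and array 2 gave 183. Of the 65 pathway genes 5 passed, with 1 under median centring, 2 with no filter, 12 with the term, 10 without the pair and 7 with the replicate block. Calls also rose over all 10279 genes, from 95 higher and 85 lower in the main fit. They were 224 and 274 with the term, 152 and 161 without the pair, and 114 and 122 with the replicate block. Leaving out 1 array gave 2 to 5, namely 5 for neural fold array 1, 3 for neural plate array 1 and 2 for each of the other 6. Pairs of probe sets of 1 gene at the smallest exact permutation p numbered 2, and 0 with values as deposited. Pairs of genes at that p numbered 8, and 7 to 9 under alternatives chosen after seeing the data. The cause of these shifts was not tested. Dim probe sets near the background limit allow only bounds, and 4 arrays a tissue limit the precision.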
